A study of Homo sapiens with 14 samples.

Results

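The nuclear matrix and scaffold attachment genes described here are SAFB, SAFB2, SLTM, MATR3, SATB1, NUMA1, AKAP8, AKAP8L and CIZ1. These 9 genes were taken by symbol for what their proteins are known to do. Earlier results of these data were known at that choice, so comparing the members with all genes is descriptive. MATR3 carries 2 gene identifiers in the deposited tables, so the 9 genes correspond to 10 identifiers of 78686. All 10 passed the filter on low counts in every comparison. The cells were HCT116, a human colorectal carcinoma line, in which SAF-A carries an mAID degron and a Halo tag and which make osTIR1(F74G), the receptor that lets 5-Ph-IAA trigger breakdown of the tagged protein. All 14 total RNA libraries, the vehicle ones included, share this engineered background, and the labels do not say whether it is 1 clone. In the time-course set (6 libraries), cells received DMSO vehicle, 5-Ph-IAA for 3 h or 5-Ph-IAA for 12 h. In the Nutlin set (8 libraries), cells received 5-Ph-IAA together with Nutlin, Nutlin alone or 5-Ph-IAA alone, each for 3 h, or DMSO vehicle. Every group held 2 libraries, and nothing in the labels says that these came from separate cultures, so p-values measure the spread between libraries that may be technical replicates.

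The nuclear matrix is the protein and RNA framework left in the nucleus after chromatin and soluble proteins are extracted, and scaffold or matrix attachment regions are AT-rich DNA stretches that bind to it. SAF-A, encoded by HNRNPU, is the founding scaffold attachment factor and binds such DNA through its SAP domain and RNA through its RGG region. SAFB, SAFB2 and SLTM form a family that pairs a SAP domain with an RNA recognition motif. MATR3 encodes matrin 3, an abundant DNA- and RNA-binding protein of the inner nuclear matrix, and SATB1 encodes a homeodomain protein best known for folding chromatin in thymocytes. NUMA1 encodes a coiled-coil protein that fills the interphase nucleus and gathers microtubules at spindle poles in mitosis. AKAP8 encodes a zinc finger protein that anchors protein kinase A at the matrix and chromatin, AKAP8L encodes its close relative, and CIZ1 encodes a matrix-bound zinc finger protein that acts with cyclins in DNA replication.

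2 pairs of gene starts matter for reading the values, and their promoters are shown for that reason. The MATR3 identifiers ENSG00000280987 and ENSG00000015479 lie on the plus strand of chromosome 5, from 139273752 to 139331671 and from 139293648 to 139331677 (GENCODE 29, GRCh38). Their gene spans share 38024 bases and differ mainly in where they begin, so ENSG00000280987 is called the upstream-start identifier below. SAFB (chromosome 19, plus strand, 5623035 to 5668478) and SAFB2 (minus strand, 5586999 to 5624046) are transcribed away from each other and overlap by 1012 bases. RefSeq (GRCh38.p14) gives promoter windows of 250 bases before to 50 bases after each start, at chr5:139273851-139274150 (plus), chr5:139293490-139293789 (plus), chr19:5622727-5623026 (minus) and chr19:5622833-5623132 (plus), in the order printed. Capitals mark GC boxes (GGGCGG or CCGCCC on the printed strand), which 45.0% of 35116 such windows hold.
MATR3 upstream start: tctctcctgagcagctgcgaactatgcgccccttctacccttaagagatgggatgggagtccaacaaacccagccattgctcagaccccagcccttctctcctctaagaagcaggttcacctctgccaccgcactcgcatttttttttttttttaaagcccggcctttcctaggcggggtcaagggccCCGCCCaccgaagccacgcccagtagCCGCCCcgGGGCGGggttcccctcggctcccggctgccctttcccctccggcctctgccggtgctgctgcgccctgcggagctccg
MATR3 downstream start: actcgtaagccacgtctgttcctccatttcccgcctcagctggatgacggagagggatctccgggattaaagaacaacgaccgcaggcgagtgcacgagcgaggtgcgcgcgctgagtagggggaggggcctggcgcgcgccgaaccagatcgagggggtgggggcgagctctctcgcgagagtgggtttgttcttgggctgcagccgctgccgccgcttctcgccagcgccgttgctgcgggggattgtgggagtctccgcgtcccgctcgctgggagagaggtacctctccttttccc
SAFB2: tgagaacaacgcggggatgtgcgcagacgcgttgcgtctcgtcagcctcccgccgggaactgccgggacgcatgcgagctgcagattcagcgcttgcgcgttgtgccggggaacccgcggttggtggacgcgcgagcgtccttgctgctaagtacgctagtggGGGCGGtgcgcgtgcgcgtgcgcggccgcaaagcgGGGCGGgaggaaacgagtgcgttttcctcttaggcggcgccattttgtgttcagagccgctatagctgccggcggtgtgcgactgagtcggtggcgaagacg
SAFB: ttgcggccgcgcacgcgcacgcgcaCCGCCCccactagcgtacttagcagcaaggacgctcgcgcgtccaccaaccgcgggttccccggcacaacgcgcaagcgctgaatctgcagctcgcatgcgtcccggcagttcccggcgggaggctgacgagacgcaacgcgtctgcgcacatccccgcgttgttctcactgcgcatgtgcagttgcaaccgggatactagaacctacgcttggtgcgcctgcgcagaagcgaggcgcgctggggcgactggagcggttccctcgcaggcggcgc
The upstream MATR3 window holds 3 GC boxes and the downstream one 0, with RefSeq starts 19639 bases apart. The SAFB2 window holds 2 and the SAFB window 1, their starts are 307 bases apart, and 194 bases belong to both windows. None of these 4 windows holds a CCAAT box (CCAAT or ATTGG, found in 34.6% of all windows) or a TATA box (TATAAA or TTTATA, in 11.5%). A match describes these letters only.

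The other members lie apart, except for a second neighbouring pair. AKAP8 (chromosome 19, minus strand, 15353385 to 15379798) and AKAP8L (minus strand, 15380048 to 15419141) stand in tandem with 249 bases between them. SLTM occupies 58879045 to 58933653 on the minus strand of chromosome 15, wholly opposite RNF111. SATB1 occupies 18345387 to 18445588 on the minus strand of chromosome 3 and overlaps TBC1D5 by 99431 bases on the same strand. NUMA1 occupies 72002864 to 72080693 on the minus strand of chromosome 11, and CIZ1 128166064 to 128204383 on the minus strand of chromosome 9, where it overlaps DNM1 on the opposite strand by 12729 bases. The library kit marks strand, but whether counting used it is not given in the sources used here, so reads from overlapping genes may be mixed.

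Totals were 29.6 to 35.1 M counts in 5 time-course libraries and 12.6 to 17.2 M in the Nutlin set, but 3.54 M in 12 h replicate 2, so 12 h values are also given without that library where it matters. The mitochondrial share was 0.251% and 0.291% in the 12 h libraries, against 0.163% and 0.215% in vehicle, and its part in the 12 h results was not tested. The epithelial keratins and EPCAM were high (EPCAM 125 to 163 TPM), while the intestinal genes VIL1 and CDX1 were at or near 0. The 12 markers of other cell types summed to 0.56 to 2.26 TPM, against 3503 to 5506 TPM for the 8 epithelial markers. HNRNPU mRNA, which a protein degron does not remove, was at 509 and 544 CPM in vehicle, 524 and 547 CPM at 3 h and 671 and 636 CPM at 12 h. It was higher at 12 h than in vehicle (log2 fold change 0.31 ± 0.063 SE, edgeR adjusted p = 0.00744), and mRNA levels do not check the depletion of the protein.

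Levels per transcript length spanned a wide range in these cells. In TPM, the deposited level per transcript length, the downstream MATR3 identifier was the most abundant in every library, with a lowest, median and highest value of 139, 164 and 184 TPM. SLTM followed at 32.3, 42.6 and 55.9 TPM, then the upstream MATR3 identifier at 11.2, 31.2 and 42.5 TPM. NUMA1 (20.2, 28.9 and 43.3 TPM), AKAP8L (18.3, 25.3 and 42.2 TPM) and SAFB (15.2, 24.4 and 30.3 TPM) overlapped one another over the libraries. CIZ1 (8.24, 13.1 and 17.8 TPM), SAFB2 (6.22, 12.1 and 16.1 TPM) and AKAP8 (8.08, 10.04 and 11.6 TPM) formed a lower overlapping trio. SATB1 was lowest, at 1.37, 2.19 and 3.98 TPM, below every library of every other member. Among 12838 genes with a median of at least 1 TPM, the downstream MATR3 identifier stood at the 96.5th percentile and SATB1 at the 15.7th. The order by median was the same when CPM was divided by effective length.

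**Figure D1:**
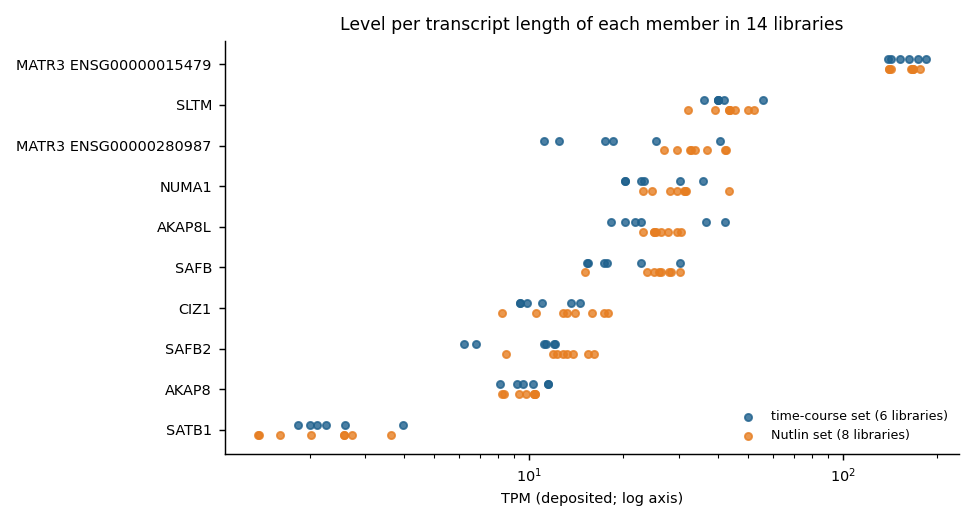
TPM of the 10 identifiers of the 9 genes in each library, on a log axis, ordered by the median over 14 libraries; each point is 1 library, with time-course libraries in blue and Nutlin-set libraries in orange. The downstream MATR3 identifier lies between 139 and 184 TPM and SATB1 between 1.37 and 3.98 TPM.

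After 12 h of 5-Ph-IAA, 4 of the 10 identifiers were higher than in vehicle and 1 was lower, by edgeR's quasi-likelihood test with an adjusted p under 0.05. These were AKAP8L, the upstream MATR3 identifier, SAFB2 and NUMA1, which rose, and the downstream MATR3 identifier, which fell. MATR3 thus enters these counts under both identifiers, which share reads, and summed it fell (log2 fold change -0.28, edgeR adjusted p = 0.0106). Across all 19049 genes tested in this comparison, 11.4% passed, 645 up and 1518 down. The members' median log2 fold change was 0.34, against -0.003 over all genes tested. In 8 of 10 identifiers the libraries of the 2 groups did not overlap, 7 higher and 1 lower at 12 h. The same held for 50.8% of all genes tested, 22.9% higher and 27.9% lower at 12 h. In bulk RNA, a change in cell composition and a change in RNA per cell cannot be told apart. The 12 h and 3 h comparisons below use the same vehicle libraries.

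AKAP8L showed the smallest adjusted p of the members. Its level was 57.1 and 51.4 CPM in vehicle, 62.9 and 63.7 CPM at 3 h and 90.4 and 86.8 CPM at 12 h. Each CPM value was scaled by TMM inside its own set, so levels are compared only inside a set. Both 12 h libraries stood above all 4 others, and both 3 h libraries above both vehicle libraries. The log2 fold change at 12 h was 0.71 ± 0.096 (SE; fold 1.64, adjusted p = 0.000957), and it passed in all 6 fits that left out 1 library. AKAP8, its tandem neighbour, was at 42.0 and 50.2 CPM in vehicle, 47.1 and 48.8 CPM at 3 h and 52.3 and 57.0 CPM at 12 h. Its 12 h libraries lay above the vehicle ones by a narrow margin, and the log2 fold change of 0.23 ± 0.12 (SE) did not pass (adjusted p = 0.248). The transcripts of these neighbours share none of their 50-base stretches. The difference between the 2 neighbours' changes was not tested.

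SAFB2 and SAFB both had higher values at 12 h, and 1 of them passed the test. SAFB2 was at 22.8 and 16.5 CPM in vehicle, 23.6 and 27.0 CPM at 3 h and 32.9 and 26.8 CPM at 12 h. The 12 h libraries lay above both vehicle libraries but overlapped the 3 h ones. Its log2 fold change over vehicle was 0.64 ± 0.17 (SE; fold 1.56, adjusted p = 0.0329). That call was lost without vehicle replicate 2 (0.44, adjusted p = 0.138) and without 12 h replicate 1 (0.46, adjusted p = 0.363). It was also lost when only the 2 groups compared were fitted (0.64, adjusted p = 0.0673). SAFB was at 53.0 and 57.2 CPM in vehicle, 50.2 and 51.6 CPM at 3 h and 64.9 and 85.8 CPM at 12 h. All 12 h libraries were above all others, and the 12 h replicates lay further apart than those of any other time-course group. SAFB changed by 0.41 ± 0.12 (SE) against vehicle, just outside the threshold (adjusted p = 0.0551). Without 12 h replicate 2 it was 0.23 (adjusted p = 0.237), and without 12 h replicate 1 it was 0.65 (adjusted p = 0.0172). SAFB and SAFB2 transcripts share 603 of their 50-base stretches, 8.19% of SAFB's and 9.42% of SAFB2's. SLTM, the third member of the family, was at 121 and 111 CPM in vehicle, 112 and 112 CPM at 3 h and 128 and 107 CPM at 12 h. These groups overlapped, and its log2 fold change at 12 h was 0.04 ± 0.095 (SE; adjusted p = 0.872).

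NUMA1 was at 148 and 137 CPM in vehicle, 139 and 150 CPM at 3 h and 183 and 186 CPM at 12 h. Vehicle and 3 h libraries overlapped, and both 12 h libraries stood apart above them. NUMA1 rose by 0.37 ± 0.080 on the log2 scale at 12 h (SE; fold 1.29, adjusted p = 0.0107). Without 12 h replicate 1 the value was 0.40 and did not pass (adjusted p = 0.0568), nor did it pass with all 14 libraries in 1 fit (0.38, adjusted p = 0.0516).

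CIZ1 was at 33.3 and 37.8 CPM in vehicle, 33.3 and 31.0 CPM at 3 h and 40.6 and 49.6 CPM at 12 h. The 12 h libraries were above all others, but the log2 fold change of 0.31 ± 0.13 (SE) did not pass (adjusted p = 0.163). SATB1 was at 7.65 and 7.70 CPM in vehicle, 5.28 and 6.41 CPM at 3 h and 8.18 and 6.03 CPM at 12 h. Its vehicle libraries lay between the 12 h ones, and its log2 fold change at 12 h was -0.05 ± 0.25 (SE; adjusted p = 0.939).

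**Figure D2:**
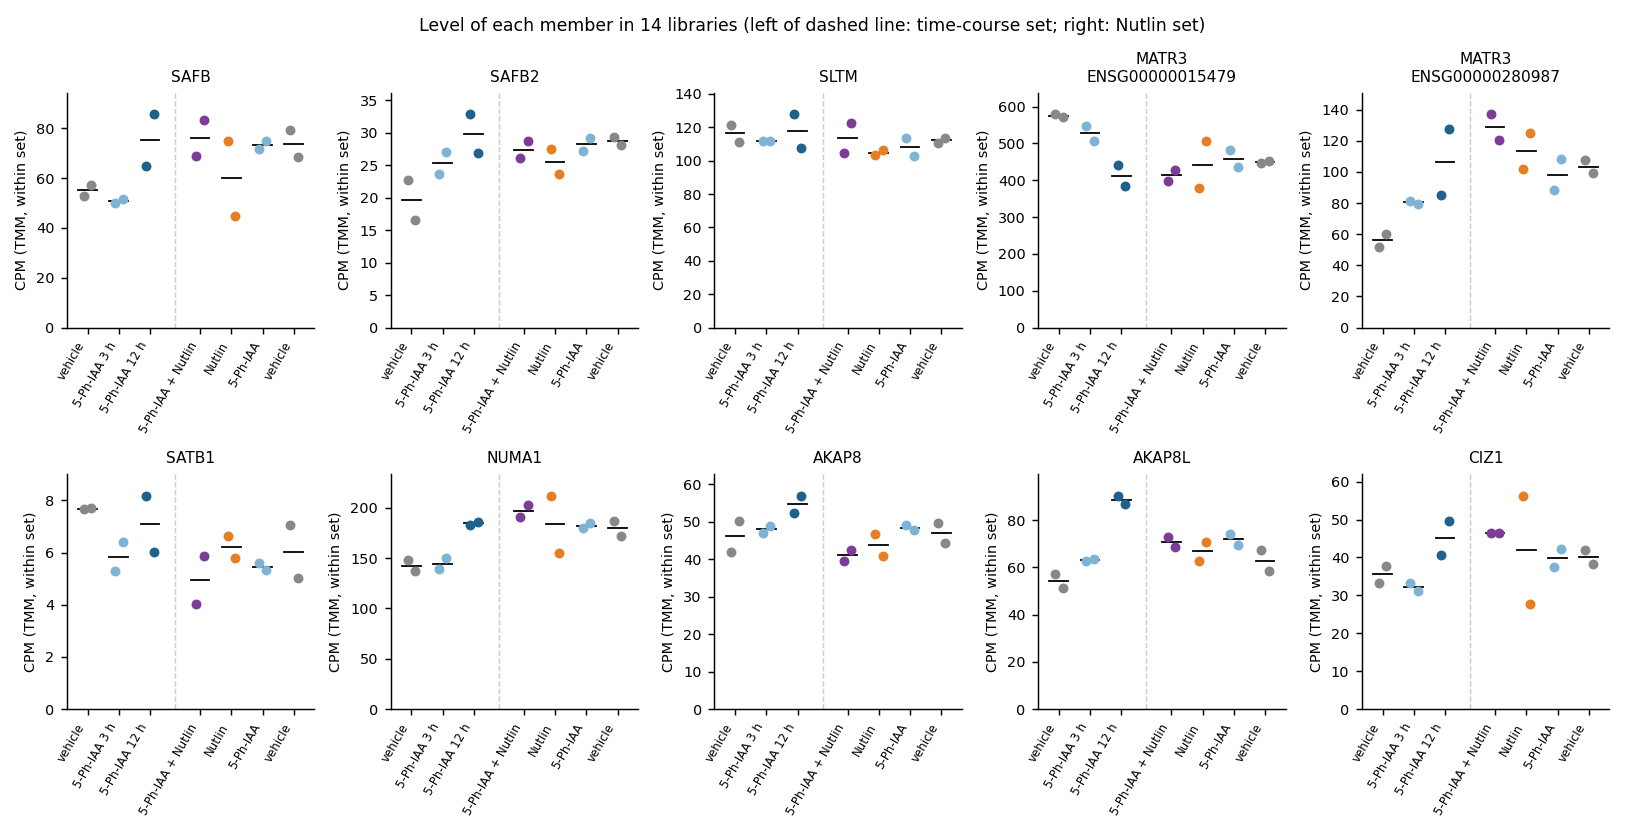
CPM (TMM-scaled within a set) of each of the 10 identifiers in 14 libraries; points are libraries, bars are group means (n = 2), and the dashed line separates the time-course set from the Nutlin set. AKAP8L is at 90.4 and 86.8 CPM at 12 h against 57.1 and 51.4 CPM in vehicle, and the Nutlin replicates of SAFB and CIZ1 lie far apart.

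The MATR3 identifiers moved in opposite directions. The downstream identifier was at 579 and 571 CPM in vehicle, 548 and 506 CPM at 3 h and 440 and 385 CPM at 12 h. The groups did not overlap at any step. Its log2 fold change at 12 h was -0.47 ± 0.073 (SE; fold 0.721, adjusted p = 0.00187). The upstream identifier was at 52.0 and 60.3 CPM in vehicle, 81.6 and 79.6 CPM at 3 h and 85.4 and 127 CPM at 12 h. It rose by 0.87 ± 0.15 on the log2 scale at 12 h (SE; fold 1.83, adjusted p = 0.00341), with the shallow replicate 2 the highest library. Without that library the change was 0.60 (adjusted p = 0.00551), and without replicate 1 it was 1.19 (adjusted p = 0.00198).

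How reads are divided between the identifiers is an estimate, because 75.1% of the 50-base stretches in the upstream identifier's transcripts also occur in those of the downstream one (GENCODE 29). The values of the separate identifiers are therefore uncertain, while their sum does not depend on that division. Of the stretches in the downstream identifier's transcripts, 39.6% occur in the upstream one's, so overlapping gene spans do not mean matching transcripts. Summed, MATR3 was at 631 and 631 CPM in vehicle, 630 and 585 CPM at 3 h and 526 and 513 CPM at 12 h. Both 12 h libraries stood below all others. The sum fell by 0.28 on the log2 scale at 12 h (SE 0.060, fold 0.823, edgeR adjusted p = 0.0106). Most of the sum is the downstream identifier, so this fall does not bear on the direction of the upstream one.

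The upstream identifier's share of MATR3 counts was 8.24% and 9.55% in vehicle, 13.0% and 13.6% at 3 h and 16.3% and 24.9% at 12 h. No group overlapped the next. The exact 95% binomial interval was 22.9% to 26.9% in the shallow 12 h library and 15.7% to 16.8% in the deep one. It covers counting error only and takes the estimated division of reads as observed, so it understates the uncertainty. The abundance-weighted transcript length that RSEM reports for this identifier was 3204 and 3503 bases in vehicle, 3178 and 3046 bases at 3 h and 2503 and 2417 bases at 12 h. The 12 h values were the lowest of the time-course set, but the Nutlin-set vehicle libraries were at 2414 and 2427 bases. All Nutlin-set libraries lay between 2283 and 2453 bases, below the 2503 bases of 12 h replicate 1. Lengths this short were thus also found in vehicle libraries, and the reason for the difference between sets was not tested. On the opposite strand the upstream identifier overlaps the protein-coding gene SIL1 by 19806 bases. Whether SIL1 reads entered its counts was not tested. The upstream identifier also overlaps SNHG4, a snoRNA host gene on the same strand, and shares 8.44% of its stretches with it. SNHG4 was at 39.6 and 37.3 CPM at 12 h and 48.0 and 40.8 CPM in vehicle (log2 fold change -0.19 ± 0.12 SE, adjusted p = 0.347).

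**Figure D3:**
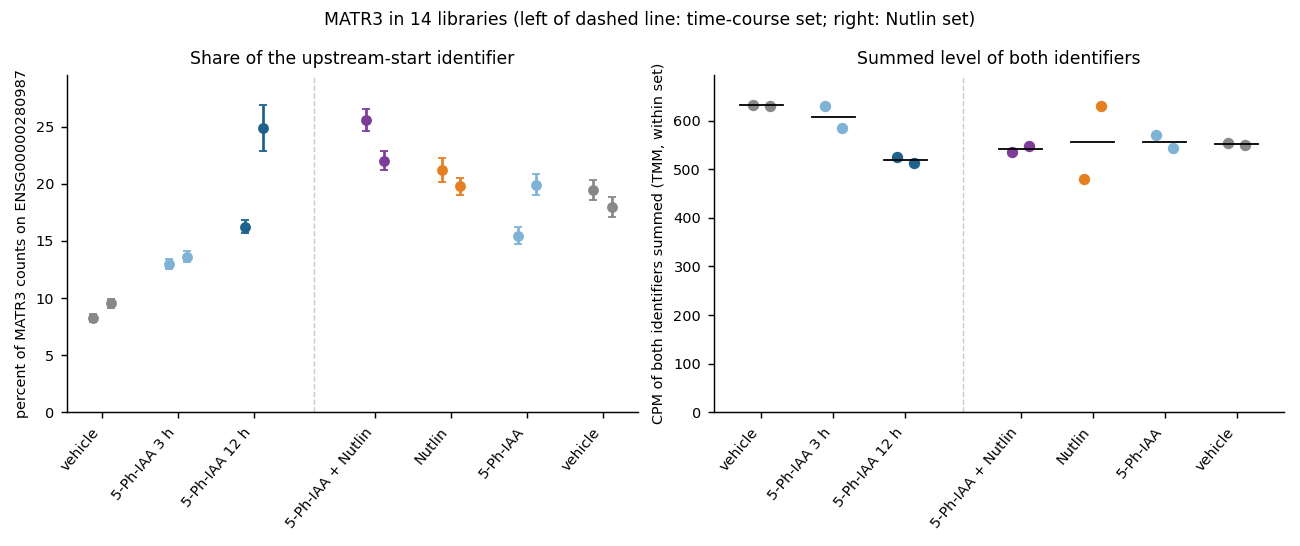
Left, the percentage of MATR3 counts on the upstream-start identifier ENSG00000280987, with exact 95% binomial intervals that take the estimated division of reads as observed. Right, the summed CPM of both identifiers, with bars at group means (n = 2). The share is 16.3% and 24.9% at 12 h, against 8.24% and 9.55% in time-course vehicle libraries, while the summed level is 526 and 513 CPM at 12 h, against 631 and 631 CPM in vehicle.

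At 3 h in the time-course set, none of the members passed edgeR's test, against 0.0682% of all genes. By edgeR, 3 members and 1228 of all genes had an unadjusted p under 0.05. DESeq2 called 54 genes, 0 of them members. The 3 members were the upstream MATR3 identifier (log2 fold change 0.52 ± 0.14 SE, adjusted p = 0.522), SAFB2 (0.37 ± 0.16, adjusted p = 0.766) and AKAP8L (0.22 ± 0.092, adjusted p = 0.753). The members' median was -0.02, against -0.01 over all genes tested. Without 12 h replicate 2, which is in neither group of this comparison, the upstream MATR3 identifier passed at 0.54 (adjusted p = 0.0385). SATB1 had the lowest value, -0.39 ± 0.24 (SE; adjusted p = 0.832).

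Between 3 h and 12 h, 3 identifiers rose and 1 fell, against 8.14% of all genes. AKAP8L rose by 0.49 ± 0.096 (SE; adjusted p = 0.00896), SAFB by 0.52 ± 0.12 (adjusted p = 0.0237) and NUMA1 by 0.35 ± 0.080 on the log2 scale (adjusted p = 0.0191). The downstream MATR3 identifier changed by -0.35 ± 0.073 (SE; adjusted p = 0.0138), and the summed gene by -0.23 ± 0.060 (adjusted p = 0.0386). CIZ1 stood just outside the threshold, at 0.45 ± 0.13 (SE; adjusted p = 0.0548). The median over the members was 0.34, against -0.01 over all genes tested. These calls depended on single libraries: 0 members passed without 3 h replicate 1, 2 without 3 h replicate 2 and 2 without 12 h replicate 2. Without 3 h replicate 1 the values were 0.46 for AKAP8L, 0.49 for SAFB, 0.28 for NUMA1 and -0.31 for the downstream MATR3 identifier, each with the sign it had with all libraries.

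In the Nutlin set, no member passed in any comparison by edgeR. Nutlin blocks the binding of MDM2 to p53 and so stabilises p53, which HCT116 cells carry in wild-type form. The comparison of 5-Ph-IAA with Nutlin against vehicle had 0 members and 0.325% of 17251 genes passing. There, 1 member and 1252 genes had an unadjusted p under 0.05 by edgeR, and 0 members and 104 genes passed by DESeq2. Nutlin against vehicle had 0 members and 0.464% of genes. Here 0 members and 1856 genes had an unadjusted p under 0.05 by edgeR, and 0 members and 158 genes passed by DESeq2. 5-Ph-IAA against vehicle had 0 members and 0% of genes, while 245 genes, none of them members, had an unadjusted p under 0.05, and 1 gene but 0 members passed by DESeq2. The interaction of 5-Ph-IAA and Nutlin had 0 members and 0% of genes, with 0 members and 623 genes at an unadjusted p under 0.05, and 0 members and 1 gene by DESeq2. The Nutlin effect averaged over both arms had 0 members and 1.44% of genes. For it, 1 member and 2309 genes had an unadjusted p under 0.05 by edgeR, and 0 members and 327 genes passed by DESeq2. The groups of a set share an estimate of spread for each gene, so the Nutlin replicates enter the SE of every comparison here. For CIZ1 the SE of 5-Ph-IAA against vehicle was 0.25, against 0.12 at 3 h in the time-course set. A lack of calls in this set therefore does not show that an effect is absent.

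AKAP8L was at 73.0 and 68.7 CPM with both agents, 62.8 and 70.9 CPM with Nutlin, 74.1 and 69.5 CPM with 5-Ph-IAA and 67.5 and 58.4 CPM in vehicle. Both 5-Ph-IAA libraries and both libraries with the 2 agents lay above vehicle, with log2 fold changes of 0.17 ± 0.11 for both agents and 0.19 ± 0.11 for 5-Ph-IAA (SE; adjusted p = 0.82 and 1). SAFB2 ranged from 23.6 to 29.4 CPM over the 8 libraries and SLTM from 103 to 123 CPM. NUMA1 was at 191 and 203 CPM with both agents, 212 and 155 CPM with Nutlin, 180 and 185 CPM with 5-Ph-IAA and 187 and 172 CPM in vehicle, so the Nutlin libraries enclosed all others. AKAP8 was at 39.5 and 42.5 CPM with both agents and 49.7 and 44.3 CPM in vehicle, without overlap (log2 fold change -0.20 ± 0.11 SE, adjusted p = 0.775). SATB1 ranged from 4.03 to 7.04 CPM.

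SAFB and CIZ1 turned on a single Nutlin library, and the Nutlin replicates also differed widely beyond these members. Over expressed genes, the chi-squared per degree of freedom between replicates was 22.2 for Nutlin, against 3.28 to 14.8 in the other groups. It is taken on raw counts and grows with depth, so groups of unlike depth cannot be compared by it. The other groups of the Nutlin set, which were of similar depth, were at 3.28 to 6.85. SAFB was at 68.9 and 83.2 CPM with both agents, 75.0 and 44.9 CPM with Nutlin, 71.7 and 75.1 CPM with 5-Ph-IAA and 79.4 and 68.3 CPM in vehicle. CIZ1 was at 46.4 and 46.6 CPM with both agents, 56.3 and 27.8 CPM with Nutlin, 37.5 and 42.3 CPM with 5-Ph-IAA and 42.0 and 38.2 CPM in vehicle. In both genes Nutlin replicate 2 was the lowest of the 8 libraries, and for CIZ1 replicate 1 was the highest. Nutlin replicate 2 also had the lowest mitochondrial share of its set, 0.189% against 0.289% to 0.344% in the other 7 libraries, and the part of that library's quality in these values was not tested. CIZ1 changed with Nutlin by 0.06 ± 0.25 (SE; adjusted p = 0.956). Its log2 fold change was -0.53 without replicate 1 and 0.48 without replicate 2, so its direction rests on which library is kept. SAFB changed with Nutlin by -0.31 ± 0.20 SE (edgeR adjusted p = 0.632), and by -0.72 without replicate 1.

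The summed MATR3 level passed in no comparison of the Nutlin set by edgeR. It was 536 and 548 CPM with both agents, 480 and 631 CPM with Nutlin, 570 and 543 CPM with 5-Ph-IAA and 554 and 551 CPM in vehicle. The downstream identifier ranged from 378 to 506 CPM, both extremes being Nutlin libraries. The upstream identifier was at 137 and 121 CPM with both agents, 102 and 125 CPM with Nutlin, 88.1 and 108 CPM with 5-Ph-IAA and 108 and 99.1 CPM in vehicle. Its share was 25.6% and 22.03% with both agents, 21.2% and 19.8% with Nutlin, 15.5% and 19.9% with 5-Ph-IAA and 19.5% and 18.0% in vehicle. The libraries with both agents had the highest shares of the set. The upstream identifier changed by 0.32 ± 0.13 with both agents (SE; unadjusted p = 0.0386, adjusted p = 0.659) and by 0.26 ± 0.095 for Nutlin averaged over both arms (adjusted p = 0.261), by edgeR. Its share in every Nutlin-set library, from 15.5% to 25.6%, exceeded the 8.24% and 9.55% of the time-course vehicle, and set cannot be told apart from library preparation and depth.

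The 3 h effect of 5-Ph-IAA was also estimated over both sets at once. For the effect common to both sets, edgeR passed 0 members and 0% of 18873 genes, and 2 members and 872 genes had an unadjusted p under 0.05. By DESeq2, 0 members and 5 genes passed. AKAP8L changed by 0.21 ± 0.064 (SE; adjusted p = 0.943), and both 3 h libraries were above both vehicle libraries in each set. For the difference between sets, 0 members passed against 0.0636% of genes, with 1 member and 1199 genes at an unadjusted p under 0.05. That member was the upstream MATR3 identifier, whose change was lower in the Nutlin set by -0.61 ± 0.14 (SE; adjusted p = 0.384 by edgeR). DESeq2 called it among 47 genes, at -0.60 (adjusted p = 0.0422).

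**Figure D4:**
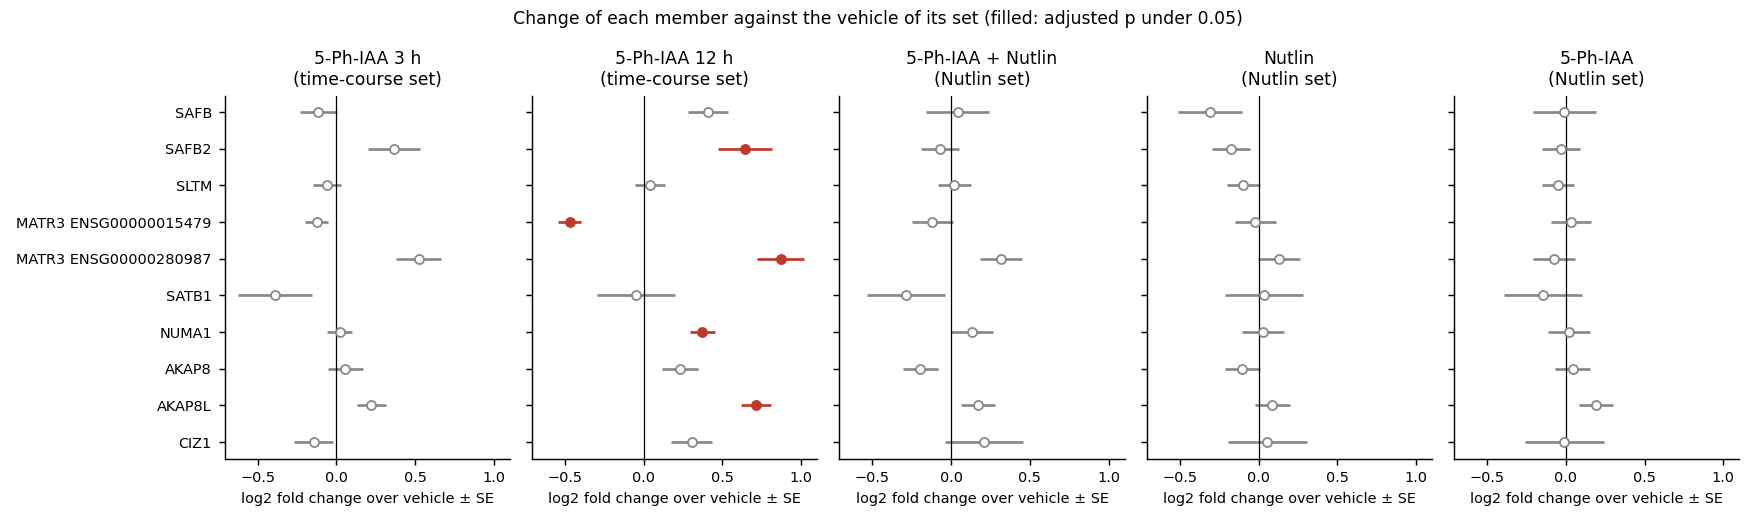
Log2 fold change over the vehicle of the same set, with its SE, for each of the 10 identifiers in 5 comparisons; filled red points passed an adjusted p of 0.05 by edgeR and open grey points did not. All 5 filled points are at 12 h, where AKAP8L is at 0.71, the upstream MATR3 identifier at 0.87 and the downstream one at -0.47.

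Among the members, the upstream MATR3 identifier varied most over the 14 libraries, with a standard deviation of 0.37 in log2 CPM relative to the vehicle mean of each set, and SLTM least, at 0.09. The genes whose pattern over the 14 libraries lay nearest to it were LTBP3, COMMD1 and GLYCTK, with root mean square distances of 0.191, 0.207 and 0.217 on the same scale. The median distance over 9761 genes, each with a mean log2 CPM of at least 3 in both sets, was 0.478. AKAP8L was the nearest other member, at 0.240, and ranked 10 of all these genes. The libraries share sets and depth, so this likeness is a description.

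Lists of related genes, also chosen with earlier results of these data known, held calls at 12 h as well. Of 17 relatives with a SAP domain or a DNA-scaffold role, 4 rose and 2 fell against vehicle, against 11.4% of all genes tested (645 up and 1518 down). Their median log2 fold change was 0.11, against -0.003 over all genes tested. HNRNPU, the targeted gene, is counted in this list and among those that rose, here and between 3 h and 12 h. RAD18, a ubiquitin ligase of DNA damage tolerance, was at 32.9 and 38.4 CPM in the 12 h libraries, against 69.5 and 72.7 CPM in the vehicle libraries (-0.96 ± 0.11 SE, adjusted p = 0.000372). DEK, a chromatin protein, changed by -0.55 ± 0.076 (adjusted p = 0.001) and ACIN1, a splicing-associated SAP protein, by 0.48 ± 0.086 (adjusted p = 0.00397). Of 14 other matrix attachment region factors, 4 rose and 3 fell, against the same 11.4% of all genes, with a median log2 fold change of 0.19. NCL, the nucleolar protein nucleolin, rose by 0.52 ± 0.063 (SE; adjusted p = 0.000555) and PARP1, the DNA-break sensor, by 0.29 ± 0.062 (adjusted p = 0.00961). HMGA2, an AT-hook protein, changed by -0.63 ± 0.089 (adjusted p = 0.00118) and TOP2A, a topoisomerase of dividing cells, by -0.29 ± 0.068 (adjusted p = 0.0183).

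Of 18 known binding partners of the members, 3 rose and 6 fell at 12 h, against 11.4% of all genes (645 up and 1518 down). Their median log2 fold change was -0.14, against -0.003 over all genes tested. DYNC1H1, the dynein heavy chain that moves NUMA1 to spindle poles, rose by 0.44 ± 0.070 (SE; adjusted p = 0.00217). GPSM2, which tethers NUMA1 to the mitotic cortex, changed by -0.51 ± 0.093 (adjusted p = 0.00425). CCNA2, a cyclin of S phase, changed by -0.41 ± 0.072 (adjusted p = 0.00361) and DDX5, an RNA helicase, by -0.29 ± 0.055 (adjusted p = 0.0058). Between 3 h and 12 h, the calls were 4 up and 2 down of the SAP list, 2 up and 1 down of the attachment region factors, and 2 up and 6 down of the partners, against 8.14% of all genes (448 up and 1103 down). In that comparison MRTFA, an SRF coactivator with a SAP domain, rose by 0.95 ± 0.19 (SE; adjusted p = 0.0099), HMGA1 by 0.30 ± 0.070 (adjusted p = 0.0213), and RBMX, an RNA-binding protein, changed by -0.57 ± 0.11 (adjusted p = 0.00839). In the other 8 comparisons edgeR called 0 genes of these 3 lists.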

How the data were processed

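RNA-seq of 14 libraries was analysed from deposited RSEM output. Per the file headers, each table lists the authors' expected counts, TPM, length and effective length for 78686 gene identifiers. The submitters' processing notes name STAR 2.7.10b, RSEM and DESeq2 1.48.1 with hg38 (GRCh38); the annotation release and the strand setting are not given in the sources used here. Per the labels' protocols, libraries were made from Trizol-extracted total RNA with a stranded total RNA kit. The deposited expected counts were rounded to whole numbers and tested by quasi-likelihood in edgeR 4.0.16 (R 4.3.3) with TMM scaling, each set in its own model with a coefficient for every group. The 3 h libraries without Nutlin were also fitted over both sets. Genes were kept by filterByExpr (minimum count 10, minimum total 15), and two-sided p-values were adjusted by Benjamini-Hochberg across every gene tested (threshold 0.05). Standard errors (SE) were derived as the size of the log2 change over the root of F. TPM values, as deposited by the authors, set levels between genes.

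Symbols were matched on unversioned gene identifiers, positions came from GENCODE 29 and promoters from RefSeq, whose table held windows for 8 of the 9 genes. Replicate numbers did not pair libraries: same-numbered libraries' deviations correlated between -0.089 and 0.047. The members and lists were chosen with earlier results of these data known. Named genes were the 9 members, HNRNPU, and at most 4 passing genes by p per list and comparison; SNHG4 was added afterwards for its overlap. With 2 libraries a group, an exact permutation test of a single value could not go below p = 0.333. In simulated 12 h data of 18003 genes, changes were put only into genes with higher counts. The test recovered 35 of 67 genes changed 1.5-fold, 47 of 67 changed 2-fold and 65 of 66 changed 4-fold. A further 17 calls fell on genes left unchanged, to be read against the recovered genes and not against all genes. Alternatives tried were DESeq2 1.42.0, RLE size factors, no count filter, a replicate block, a joint fit of all 14 libraries, a fit of only the groups compared, summed MATR3 identifiers, and leaving out each library.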

Additional observations from a re-analysis of the deposited data

How the results depend on the processing

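At 12 h against vehicle, the count of 5 members passing was 4 to 6 under every alternative, and AKAP8L and both MATR3 identifiers passed in each when the identifiers were kept apart. With the MATR3 identifiers summed, the gene changed by -0.28 for 12 h against vehicle and -0.23 for 12 h against 3 h. That sign is opposite to the upstream identifier's, and most of the sum is the downstream identifier. SAFB, short of the threshold as reported, passed at 12 h by DESeq2 (0.44, adjusted p = 0.0136). In the 12 h against 3 h comparison, 4 members passed as reported, 1 with all 14 libraries in 1 fit, and 0 to 5 without 1 library. At 3 h, 1 member passed with no filter on low counts and 0 to 1 without 1 library. The set difference gave 1 member by DESeq2 and 1 with no filter, and the combination of agents gave 1 with the compared groups only (upstream MATR3 identifier, 0.32, adjusted p = 0.046). Leaving out 1 library gave 0 to 2 members for Nutlin, 0 to 2 for the interaction and 0 to 3 for the averaged Nutlin effect, all from leaving out a Nutlin library. CIZ1 with Nutlin reversed to -0.53 without Nutlin replicate 1, against 0.48 without replicate 2. The cause of these shifts was not tested, except that the summed alternative changes what is counted. With a replicate block, 6 members passed at 12 h against vehicle (SAFB added, 0.42, adjusted p = 0.0215), 5 at 12 h against 3 h (CIZ1 added) and 0 in every other comparison; the numbers are only labels. Of 1139 values that passed neither as reported nor under an alternative, 65 changed sign. Counts over all genes moved widely over the alternatives: from 961 to 2909 at 12 h against vehicle, 612 to 2448 at 12 h against 3 h, 13 to 283 at 3 h, 25 to 2131 for Nutlin, 21 to 395 for both agents, 84 to 1977 for the averaged Nutlin effect, 0 to 1035 for the interaction, 0 to 53 for 5-Ph-IAA in the Nutlin set, 5 to 177 for the set difference and 0 to 110 for the common effect. The 12 h replicate 2 library was shallow, at 3.54 M counts.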
